A study of Mus musculus with 26 samples.

Results

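The nuclear-encoded subunits of the mitochondrial respiratory chain were followed across sorted and immortalized mouse blood progenitors. They were taken as every gene of the array whose single symbol starts with Ndufa, Ndufb, Ndufc, Ndufs, Ndufv, Uqcr, a Cox number from 4 to 8 or Atp5, or is Sdha, Sdhb, Sdhc or Sdhd. Assembly factors of the Ndufaf series and pseudogenes were left out, and each gene was read from its probe set with the highest mean signal. This gave 82 of 19937 genes: 36 of complex I, 4 of complex II, 8 of complex III, 17 of complex IV and 17 of complex V.

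The respiratory chain passes electrons from NADH (complex I) and succinate (complex II) through complex III to oxygen at complex IV, and complex V uses the resulting proton gradient to make ATP. Its subunits come from both the nuclear and the mitochondrial genome, so their supply is tied to mitochondrial transcription, import and assembly. Hematopoietic stem cells are known for relying little on oxidative phosphorylation, and their progeny are known for relying on it more.

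Expression was measured on 26 Affymetrix arrays of cells of strain C57BL/6, in 8 groups. Long-term hematopoietic stem cells (LT-HSC, n = 4) and granulocyte macrophage progenitors (GMP, n = 4) were sorted from wild-type bone marrow. Lines immortalized from LT-HSC were grown in liquid medium with doxycycline (dox) for 48 h (n = 2) or 72 h (n = 3) or without it for 48 h (n = 3) or 72 h (n = 3), and lines immortalized from GMP with (n = 4) or without dox (n = 3) for 48 h. The series concerns MLL-AF9, a leukaemia fusion gene that dox is known to switch on in such lines, but the labels name neither the construct nor whether the hours count from adding or withdrawing dox. The LT-HSC-derived cultures came from 3 lines and the GMP-derived ones from 4 lines, so cultures of 1 line share their source. The titles use the names B6-1, B6-2 and B6-3 for both origins, and what the shared names stand for is not stated. The remaining GMP-derived line has a name of another form. At 48 h B6-1 has no array with dox from LT-HSC and none without dox from GMP. The labels do not tie sorted replicates to different mice, and p-values then measure only the spread between these samples. All signals are deposited log2 values. Differences are on the log2 scale with the standard error (SE) of a limma fit to all arrays, and "called" means a 2-sided adjusted p (Benjamini-Hochberg, across every gene tested) under 0.05.

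Replicates of a group correlated with r from 0.979 to 0.991 over probe sets. The sorted cells carried the markers of their labels: 12 of 13 HSC markers were lower and 10 of 10 GMP markers were higher in sorted GMP than in sorted LT-HSC, with 1 HSC marker higher. In the lines the mean signal of the HSC markers was 5.41 to 6.80 per array, against 8.51 to 8.64 in sorted LT-HSC, and that of the GMP markers was 8.73 to 9.34, against 9.26 to 9.39 in sorted GMP. The LT-HSC-derived lines thus did not carry the LT-HSC markers at the level of sorted LT-HSC.

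Promoters of 3 subunit genes that were higher in sorted GMP are shown because each holds a motif known from respiratory genes. The sequences are RefSeq's for GRCm38.p6, from 250 bases before the start of the gene to 50 after it. The capitals mark GCGCATGC (NRF1) on both strands, overlapping, in Atp5k, AAGATGGC (YY1) in Ndufs6, and CCGGAAGT (ETS, the family of GABPA) and a reverse NRF1 match in Uqcr11.
Atp5k, chr5:108434350-108434649, minus strand: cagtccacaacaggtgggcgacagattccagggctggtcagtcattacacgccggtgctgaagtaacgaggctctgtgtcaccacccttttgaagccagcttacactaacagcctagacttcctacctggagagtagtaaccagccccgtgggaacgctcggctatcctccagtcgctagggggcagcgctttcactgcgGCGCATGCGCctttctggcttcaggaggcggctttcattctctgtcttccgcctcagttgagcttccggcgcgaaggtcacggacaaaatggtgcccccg
Ndufs6, chr13:73328433-73328732, minus strand: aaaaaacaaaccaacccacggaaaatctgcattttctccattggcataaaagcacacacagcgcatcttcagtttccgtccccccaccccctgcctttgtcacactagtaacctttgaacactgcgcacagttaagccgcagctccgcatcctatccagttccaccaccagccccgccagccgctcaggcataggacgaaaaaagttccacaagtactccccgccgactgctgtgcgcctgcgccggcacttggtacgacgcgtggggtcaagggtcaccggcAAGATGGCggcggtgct
Uqcr11, chr10:80406772-80407071, minus strand: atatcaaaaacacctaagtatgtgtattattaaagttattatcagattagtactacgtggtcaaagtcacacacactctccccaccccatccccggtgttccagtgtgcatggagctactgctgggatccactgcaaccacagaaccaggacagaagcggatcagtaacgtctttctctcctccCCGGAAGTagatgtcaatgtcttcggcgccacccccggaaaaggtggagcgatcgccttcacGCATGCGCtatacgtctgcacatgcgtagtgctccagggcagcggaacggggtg

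RefSeq promoters were matched for 67 of the 82 genes, and each motif was searched on both strands. The NRF1 motif stood in 10 of the 67 genes (14.9%) and in 3.93% of 17491 protein-coding genes, the YY1 motif in 10 (14.9%) and 3.57%, and the ETS motif in 5 (7.46%) and 5.69%. Any of them was found in 24 genes (35.8%), against 12.3% of protein-coding genes, and Uqcr11 held both NRF1 and ETS. NRF1 matches were in Atp5g2, Atp5k, Atp5l, Cox6a1, Ndufa6, Ndufa8, Ndufa11, Sdhb, Uqcr11 and Uqcrc1, YY1 matches in Atp5j, Atp5j2, Atp5pb, Ndufa3, Ndufa9, Ndufb8, Ndufc1, Ndufs4, Ndufs6 and Ndufs7, and ETS matches in Atp5h, Cox8a, Ndufs3, Uqcr11 and Uqcrh. These are matches of letters, and no binding was measured.

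Sorted LT-HSC stood below every other group. The median deviation of the 82 genes from their means over all arrays was -0.56 to -0.36 on the 4 sorted LT-HSC arrays, -0.03 to 0.02 on the sorted GMP arrays and -0.00 to 0.22 on the arrays of the lines. The LT-HSC arrays did not overlap with the others in complex I (-0.67 to -0.42), complex II (-0.36 to -0.16), complex III (-0.65 to -0.57), complex IV (-0.28 to -0.17) or complex V (-0.55 to -0.31). In bulk samples, fewer cells of a type and less RNA per cell cannot be told apart.

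**Figure D1:**
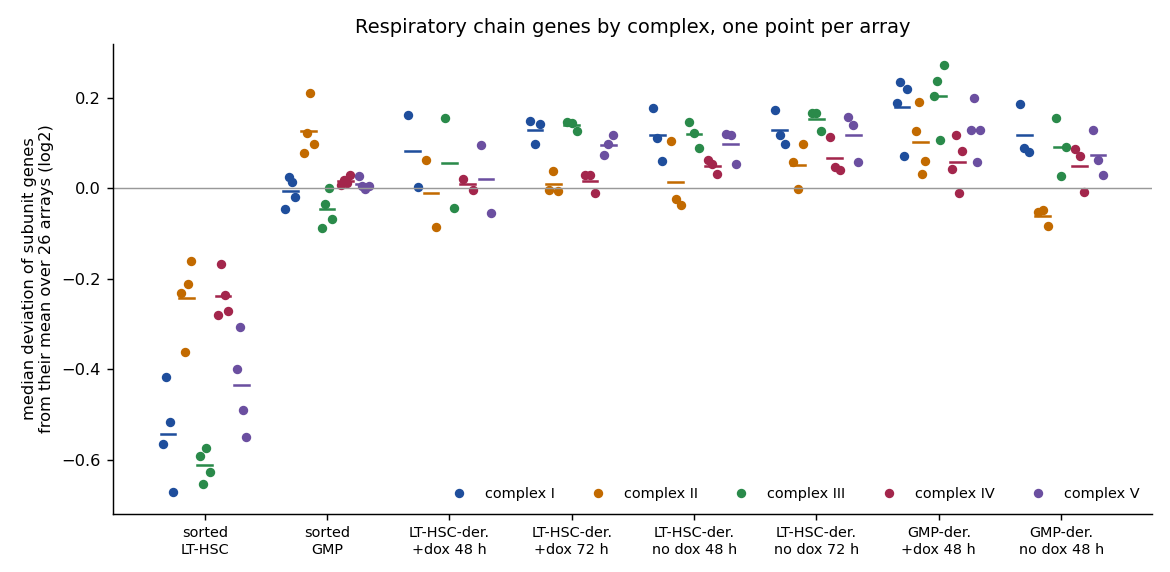
Median deviation of the subunit genes of each complex from their means over all 26 arrays (vertical axis, log2), with one point per array and a dash at the group mean, for the 8 groups (horizontal axis). The 4 sorted LT-HSC arrays lie below the arrays of the other groups in every complex, by most in complexes I and III.

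The comparison of sorted GMP with sorted LT-HSC describes the normal counterparts of the lines. Of the 82 subunit genes 71 were higher in GMP and 0 lower, where 32.1% of all genes were called, 16.8% higher and 15.3% lower. The median difference was 0.47, against -0.01 over all genes. The higher genes were 34 of 36 of complex I, 4 of 4 of complex II, 7 of 8 of complex III, 9 of 17 of complex IV and 17 of 17 of complex V. Highly expressed genes were called more often: among 2171 genes with a mean signal of at least 8.62, 49.1% were called higher, with a median difference of 0.19. Of the 61 subunit genes among them 59 were higher. With quantile normalization 61 were higher and 1 lower.

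The largest difference was that of Uqcr11, a small subunit of complex III. Its signal was 7.41, 7.79, 7.54 and 7.48 on the sorted LT-HSC arrays and 8.55, 8.62, 8.96 and 8.54 on the sorted GMP arrays. The groups did not overlap, and the difference was 1.11 ± 0.10 (2.16-fold, adjusted p = 3.84e-09). In the same complex Uqcr10 was higher by 0.87 ± 0.09, Uqcrq by 0.82 ± 0.09, the core protein Uqcrc1 by 0.81 ± 0.07 and the Rieske iron-sulfur protein Uqcrfs1 by 0.55 ± 0.07. Uqcrh, the hinge protein that contacts cytochrome c1, was the exception: it read 11.28, 11.21, 11.08 and 11.20 in LT-HSC and 11.17, 11.17, 11.19 and 11.16 in GMP. The groups overlapped, and the difference was -0.02 ± 0.06 (adjusted p = 0.858, 95% interval -0.14 to 0.10).

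Complex I takes electrons from NADH through a few catalytic core subunits that accessory subunits surround. All 28 accessory subunits were higher in GMP, by 0.26 to 1.02 with a median of 0.60, and so were 5 of 6 core subunits, with a median of 0.51. Ndufb3, an accessory subunit of the membrane arm, read 7.60, 7.71, 8.10 and 7.04 in LT-HSC and 8.62, 8.77, 8.53 and 8.64 in GMP. Its LT-HSC arrays were spread widely but all lay below the GMP arrays (1.02 ± 0.14, adjusted p = 1.59e-06). Ndufs5 followed with 0.98 ± 0.12 and Ndufs6 with 0.80 ± 0.06. Ndufs7, the core subunit that holds the last iron-sulfur cluster before ubiquinone, read 7.51, 7.61, 7.10 and 7.05 in LT-HSC and 7.46, 7.61, 7.58 and 7.46 in GMP. LT-HSC replicates 3 and 4 lay below the rest while replicates 1 and 2 did not, and the gene was not called (0.21 ± 0.10, adjusted p = 0.121). Ndufa4, which was first assigned to complex I and is now counted with complex IV, was higher by 0.37 ± 0.06. Its hypoxia-induced paralog Ndufa4l2 gave -0.03 ± 0.13.

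All 4 subunits of complex II, which is also the succinate dehydrogenase of the citric acid cycle, were higher. Its iron-sulfur subunit Sdhb read 8.15, 7.97, 8.02 and 8.02 in LT-HSC and 8.76, 8.73, 8.94 and 8.74 in GMP. It was higher by 0.75 ± 0.09 (adjusted p = 3.81e-07), without overlap. The membrane anchors Sdhd and Sdhc were higher by 0.39 ± 0.07 and 0.32 ± 0.09, and the flavoprotein Sdha, which holds the active site, by 0.14 ± 0.05 (adjusted p = 0.0449).

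In complex IV the calls mostly followed the kind of subunit. The 9 subunits classed as broadly expressed, a class without Cox7a2l, were all higher in GMP, with a median of 0.52. Of the 7 isoforms known from heart, muscle, lung or testis 0 were called. Among these isoforms, Cox4i2, Cox7b2, Cox8b and Cox8c had a mean signal below the median of all probe sets. Whether they lie above background was not analysed here. Cox5a, which lies on the matrix side, read 9.40, 9.53, 9.46 and 9.07 in LT-HSC and 10.22, 10.22, 10.28 and 10.31 in GMP. The groups were apart by more than the spread of either (0.89 ± 0.08, adjusted p = 2.91e-09). Cox7a2 was higher by 0.76 ± 0.06, Cox6a1 by 0.63 ± 0.08, Cox4i1 by 0.57 ± 0.07, Cox8a by 0.49 ± 0.09 and Cox6b1 by 0.31 ± 0.06. Their restricted partners gave 0.19 ± 0.15 for Cox7a1, -0.20 ± 0.24 for Cox6a2, -0.06 ± 0.07 for Cox4i2, -0.03 ± 0.10 for Cox8b and -0.05 ± 0.13 for Cox6b2. Cox7a2l read 10.50, 10.36, 10.38 and 10.28 in LT-HSC and 10.24, 10.24, 10.26 and 10.09 in GMP. All GMP arrays lay below all LT-HSC arrays, but it was not called (-0.17 ± 0.07, adjusted p = 0.0675). Without the 7 isoforms and Ndufa4l2, 71 of the other 74 subunit genes were higher, with Ndufs7, Uqcrh and Cox7a2l as those not called.

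All 17 genes of complex V, the ATP synthase, were higher in GMP, by 0.24 to 0.97. Atp5k, the small membrane subunit e of the dimer interface, read 9.67, 10.01, 9.83 and 9.56 in LT-HSC and 10.65, 10.63, 10.62 and 10.75 in GMP. The groups did not overlap (0.89 ± 0.08, adjusted p = 2.64e-09). The 3 genes for the rotating c-ring encode the same mature protein. On the probe sets used, Atp5g1 was higher by 0.97 ± 0.09, Atp5g3 by 0.53 ± 0.06 and Atp5g2 by 0.24 ± 0.07. Atp5g1 has a second probe set that gave -0.10, so its size is uncertain. The other probe sets of Atp5g2 gave 0.25 and 0.56, so the order of the 3 genes is uncertain too. The catalytic head subunits Atp5b and Atp5a1 were higher by 0.27 ± 0.05 and 0.40 ± 0.06. Other probe sets also disagreed in sign for Ndufab1 (0.58 against -0.27) and Ndufs3 (0.48 against -0.28), and in size for Atp5l (-0.01 to 1.16 over 5 probe sets) and Atp5md (0.30 against 0.98). Subunit genes have many processed copies in the genome, and which locus such a probe set reads was not tested.

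**Figure D2:**
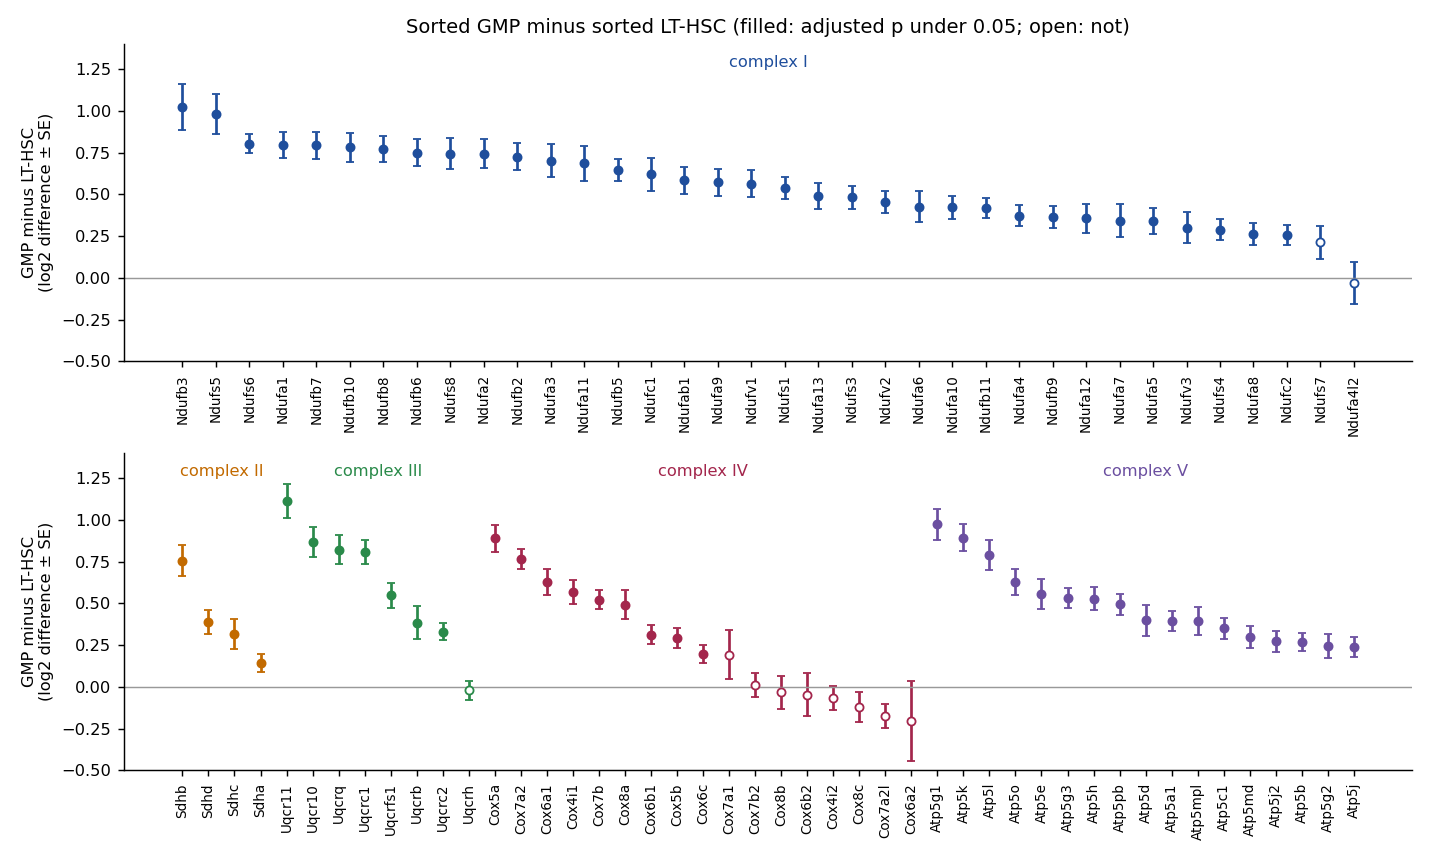
Difference of every subunit gene between sorted GMP and sorted LT-HSC (vertical axis, log2 difference with SE bars; n = 4 and 4), ordered within each complex. Filled points are called and open points are not: 71 are filled, all above 0, and the open ones are mostly tissue-restricted isoforms of complex IV.

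Genes around the chain were compared in the same cells. Cytochrome c (Cycs) was higher in GMP by 0.89 ± 0.06 and the nuclear-encoded cytochrome c1 of complex III (Cyc1) by 0.57 ± 0.09. Of 16 genes of the citric acid cycle and pyruvate oxidation 14 were higher and 1 lower, among them fumarase (Fh1) by 0.80 ± 0.09, Dlst by 0.73 ± 0.06 and Idh3a by 0.70 ± 0.07. Complex I assembly factors were higher for 7 of 14, led by Ndufaf3 at 0.59 ± 0.09, and those of complexes II to V for 11 of 32, with 2 lower. Regulators of mitochondrial biogenesis went otherwise, with 1 of 17 higher and 5 lower. The coactivator Ppargc1a was lower by 1.33 on the log2 scale (-1.33 ± 0.10), from a mean of 5.29 to 3.96, Gabpb1 gave -0.56 ± 0.10 and the mitochondrial DNA packaging factor Tfam -0.22 ± 0.08. Ppargc1a in GMP lay below the median of all probe sets (5.87), as it did in every group, so the size of its difference is uncertain. The 2 mitochondrially encoded transcripts measured with 1 symbol were not called in this comparison: COX2 differed by 0.02 ± 0.08 and ND3 by 0.09 ± 0.06. In GMP-derived lines with dox ND3 was lower than in sorted GMP (-0.18 ± 0.06, adjusted p = 0.0352), while COX2 was not called (-0.06 ± 0.08).

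Other gene lists moved with the sorted difference. Of 21 proliferation genes 20 were higher in GMP, and their mean signal was 8.47 to 8.85 per array in LT-HSC and 9.42 to 9.49 in GMP. Monocyte and macrophage markers (7 of 9 higher, 5.73 to 6.04 against 7.98 to 8.19) and megakaryocyte markers (6 of 6 lower, 7.33 to 7.66 against 5.56 to 6.01) differed too. Of the other lists, 4 of 15 MYC and nucleolar genes, 3 of 11 late neutrophil markers, 5 of 8 mast cell and basophil markers (1 lower), 1 of 7 erythroid markers (2 lower), 1 of 7 B cell markers, 1 of 8 T and NK cell markers (1 lower) and 1 of 10 stromal and endothelial markers (1 lower) were higher. The part of these lists in the subunit difference was not tested.

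The LT-HSC-derived lines were compared with sorted LT-HSC, once with and once without dox at 48 h; both comparisons share the 4 sorted arrays. With dox 63 of the subunit genes were higher and 1 lower (median 0.50), where 29.2% of all genes were called, 14.6% in each direction. Without dox 68 were higher and 1 lower (median 0.52), where 35.2% were called, 17.1% higher and 18.1% lower. Among the 2171 genes with a mean signal of at least 8.62, 45.0% were higher with dox (median 0.19) and 46.4% without (median 0.16). Of the 61 subunit genes among them 51 and 53 were higher. Complex I held 31 and 34 of the higher genes, complex II 2 and 2, complex III 7 and 7, complex IV 9 and 10 and complex V 14 and 15. Culture and immortalization both separate these groups and cannot be told apart.

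Ndufb2, an accessory subunit of complex I, read 7.16, 7.22, 7.003 and 7.09 in sorted LT-HSC, 8.41 and 8.32 with dox and 8.29, 8.13 and 8.07 without. The lines lay above all sorted LT-HSC arrays and above sorted GMP (7.75 to 7.90). The difference from sorted LT-HSC was 1.25 ± 0.10 with dox (adjusted p = 4.2e-10). Without dox the largest differences outside the restricted isoforms were Uqcr11 at 1.35 ± 0.11, Ndufb3 at 1.28 ± 0.15 and Uqcrq at 1.25 ± 0.09. Sdhb was higher by 0.72 ± 0.11 with dox and 0.63 ± 0.10 without, whereas Sdha gave 0.07 ± 0.07 and 0.03 ± 0.06. Cox7a2l (0.01 ± 0.09 and -0.01 ± 0.08) and Uqcrh (0.04 ± 0.07 and 0.13 ± 0.06) were not called. Atp5g1 was higher by 0.85 ± 0.11 and 0.96 ± 0.10, while Atp5g2 gave 0.01 ± 0.09 and 0.06 ± 0.08. The second probe set of Atp5g1 gave -0.06 with dox and -0.25 without. The other probe sets of Atp5g2 gave 0.27 and 0.64 with dox and 0.29 and 0.44 without, so this contrast depends on the probe set. Cycs was higher by 0.88 ± 0.08 and 0.77 ± 0.07. Of the 21 proliferation genes 15 and 16 were higher, of 10 GMP markers 9 and 9, and of 11 late neutrophil markers 7 and 9 (mean signal 5.86 to 6.91 in sorted LT-HSC, 7.83 to 7.95 with dox and 8.36 to 9.03 without), while 12 and 12 of 13 HSC markers were lower. The part of these lists was not tested.

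Against sorted GMP the GMP-derived lines showed smaller and mixed differences, and both comparisons share the 4 sorted GMP arrays. With dox 30 subunit genes were higher and 4 lower (median 0.15), where 19.8% of all genes were called, 10% higher and 9.76% lower. Without dox 17 were higher and 10 lower (median 0.05), where 23.5% were called, 10.8% higher and 12.7% lower. Among the 2171 genes with a mean signal of at least 8.62, 21.9% were higher and 19.3% lower with dox. Without dox these shares were 20.1% and 28.4%. Of the 61 subunit genes among them 24 were higher and 3 lower with dox, and 15 and 6 without.

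Ndufv3, an accessory subunit near the NADH-binding site, was the most increased gene of complex I in both. It read 9.12, 9.13, 9.15 and 9.22 in sorted GMP, 9.51, 9.86, 9.75 and 9.62 with dox and 9.95, 10.10 and 9.86 without. No array of the lines overlapped with sorted GMP, and the differences were 0.53 ± 0.09 (adjusted p = 0.000184) and 0.81 ± 0.10 (adjusted p = 1.59e-06). Ndufa10, another accessory subunit, went down. It read 10.31, 10.35, 10.31 and 10.31 in sorted GMP, 10.01, 10.07, 9.81 and 10.01 with dox and 9.91, 9.82 and 9.77 without. All arrays of the lines were below sorted GMP, by -0.34 ± 0.07 and -0.49 ± 0.08 (adjusted p = 2.67e-05).

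The 10 lower genes without dox came from every complex. They were the flavin-binding core subunit Ndufv1 (-0.28 ± 0.09) and Ndufa10 in complex I, Sdhb (-0.35 ± 0.10) and Sdhc (-0.31 ± 0.10) in complex II, the core proteins Uqcrc1 (-0.27 ± 0.08) and Uqcrc2 (-0.17 ± 0.06) in complex III, Cox8a (-0.34 ± 0.09) and Cox6b2 in complex IV, and Atp5a1 (-0.45 ± 0.06) and Atp5g2 (-0.32 ± 0.08) in complex V. Of 15 alternative settings, the call was lost in 6 for Uqcrc2, 5 for Sdhc, 3 for Ndufv1 and 1 each for Sdhb, Uqcrc1 and Cox8a, and in 0 for Ndufa10, Cox6b2, Atp5a1 and Atp5g2. Atp5a1, the alpha subunit of the head, read 10.70, 10.70, 10.86 and 10.74 in sorted GMP and 10.34, 10.23 and 10.32 in the lines without dox. These arrays did not overlap (adjusted p = 5.93e-06). By class, 8 of 28 accessory subunits of complex I were higher and 1 lower (median 0.18) and 0 of 6 core subunits higher and 1 lower (median -0.06). In complex III the 5 small subunits had 2 higher and a median of 0.19, and the core and Rieske proteins 1 higher and 2 lower with a median of -0.17. The peripheral stalk of complex V had 2 of 4 higher (median 0.19) and the head 1 of 5 higher and 1 lower (median -0.02). No test of one class against another was made. Of the higher genes, Uqcrq (0.33 ± 0.09), Uqcrfs1 (0.29 ± 0.08) and Atp5e (0.26 ± 0.10) were among those above sorted GMP, and the calls of Atp5e and Uqcrq were lost in 7 and 1 of the 15 settings. In this comparison 15 of 15 MYC and nucleolar genes were lower (mean signal 8.62 to 9.03 against 9.37 to 9.50), and 9 of 11 late neutrophil markers were higher (9.45 to 9.66 against 6.07 to 7.39). Their part was not tested.

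**Figure D3:**
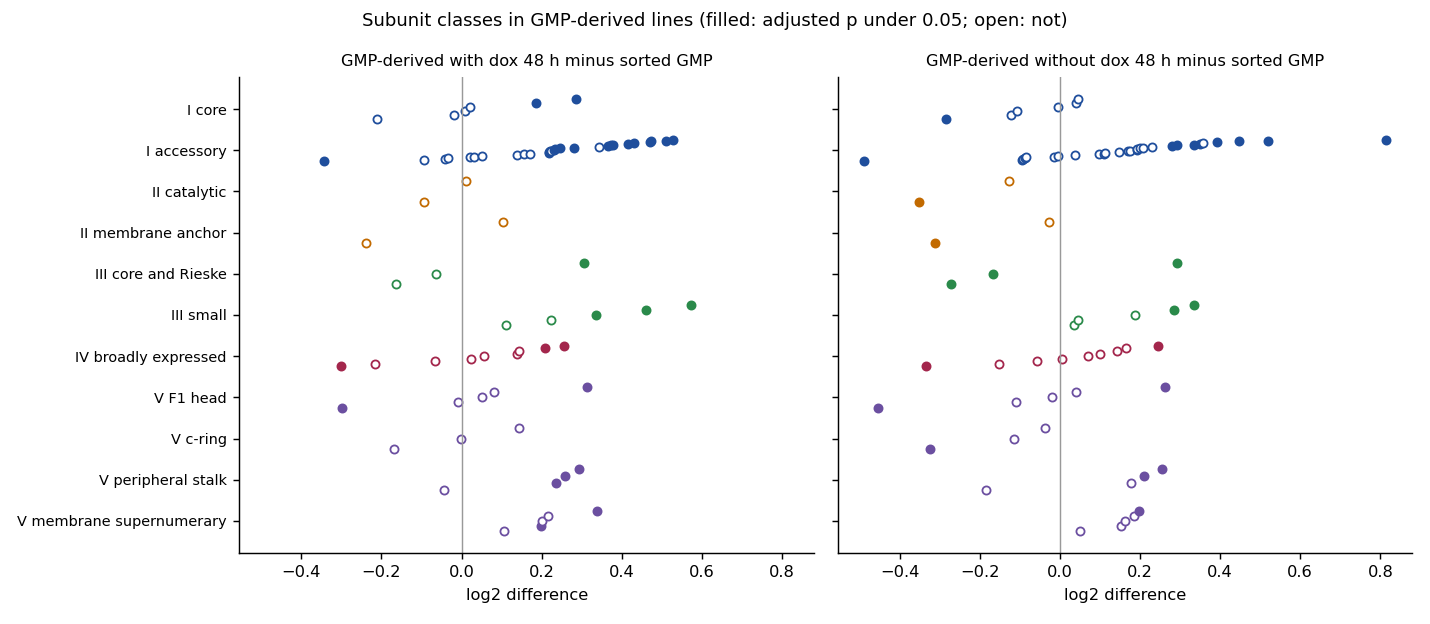
Differences of the subunit genes in GMP-derived lines with dox (left, n = 4) and without dox (right, n = 3) from sorted GMP (n = 4), on a log2 scale (horizontal axis), by complex and subunit class (vertical axis). Filled points are called. Many of the filled points above 0 are accessory subunits of complex I, which is also the largest class drawn, and with dox 3 filled points lie below 0. The 8 restricted isoforms, Ndufa4 and Cox7a2l are not drawn.

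Few subunit genes were called between cultures with and without dox. In the LT-HSC-derived lines at 48 h 0 of the 82 genes were called, where 0.441% of all genes were, and 3 had an unadjusted p under 0.05. The share of all genes at that unadjusted threshold was not computed, here or below, so such counts have no background beside them. At 72 h Cox6a2 was higher with dox and Cox7a1 lower, where 7.15% of all genes were called, 3.43% higher and 3.72% lower. In the GMP-derived lines 1 gene, Cox6a2, was higher, where 10.9% were called, 5.75% higher and 5.18% lower. For the 74 genes that are not restricted isoforms, the differences ran from -0.19 to 0.20 and from -0.15 to 0.19 in the LT-HSC-derived lines at 48 h and 72 h, and from -0.29 to 0.27 in the GMP-derived lines. Their 95% intervals lay within 0.50 of 0 for 74, 74 and 73 of them, so larger effects than that are outside the intervals for these genes, and smaller ones cannot be told apart from none. The sorted comparison differed by a median of 0.51 in the same 74 genes.

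In the GMP-derived lines 65 of the 82 differences with dox were above 0, and 12 had an unadjusted p under 0.05. The median was 0.06 (0.01 over all genes and 0.05 over the 2171 bright genes). Of those 2171 genes 25.3% were called, 16.6% higher and 8.71% lower, while of the 61 subunit genes among them 0 were. The share of all genes with a difference above 0 was not computed. Ndufab1, the acyl carrier protein of complex I, came closest to the threshold (0.27 ± 0.09, adjusted p = 0.0504). Around the chain more was called: 7 of 14 complex I assembly factors were higher, with Ndufaf4 at 0.69 ± 0.11 (adjusted p = 9.61e-05) and Ecsit at 0.46 ± 0.08, as were 6 of 32 assembly factors of complexes II to V, 3 of 16 citric acid cycle genes, and Cyc1 (0.31 ± 0.09) and Chchd10 (0.34 ± 0.10). Of the biogenesis regulators 4 of 17 were higher and 1 lower, with the coactivator Pprc1 at 0.44 ± 0.10. Beside these, 14 of 15 MYC and nucleolar genes were higher and 8 of 11 late neutrophil markers (7.16 to 7.49 against 9.45 to 9.66) and 5 of 9 monocyte markers were lower, and their part was not tested. In the LT-HSC-derived lines at 72 h, Ndufaf6 (0.58 ± 0.15) and Tmem186 (0.35 ± 0.10) of the complex I assembly factors and Tfam (0.43 ± 0.10) were higher with dox, and 5 of 11 late neutrophil and 5 of 9 monocyte markers were lower.

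Few were called for time or origin either. Between 48 h and 72 h 0 genes were called with dox and 0 without (0% and 0.181% of all genes called; 0 and 1 subunit genes had an unadjusted p under 0.05). Between GMP-derived and LT-HSC-derived lines at 48 h 1 gene, Cox6a2, was called, and lower in GMP-derived lines, both with dox (2.11% of all genes called, 0.943% higher and 1.17% lower) and without (6.8% called, 3.28% higher and 3.52% lower). A difference of the dox effect between the origins was called for 0 of the 82 genes (8 with an unadjusted p under 0.05; 0.231% of all genes called).

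**Figure D4:**
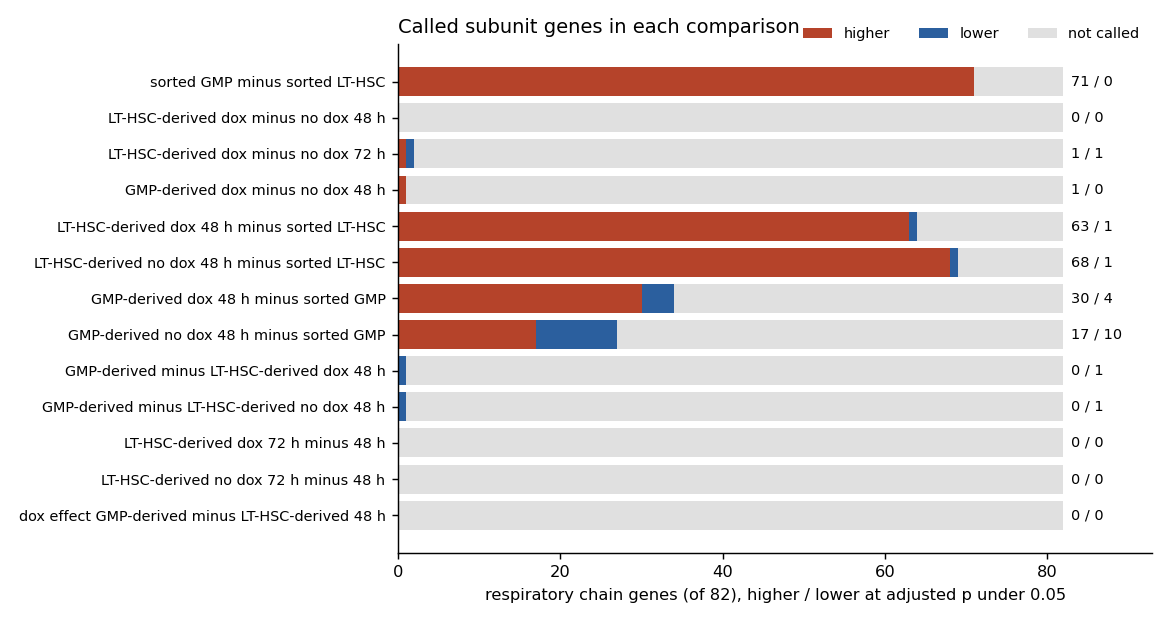
Number of the 82 subunit genes called higher (red), lower (blue) or not called (grey) in each of the 13 comparisons (horizontal axis, genes), with the counts printed as higher / lower. Most calls lie in the comparison of the sorted cells and in those of LT-HSC-derived lines with sorted LT-HSC, and 0 to 2 in those between cultures.

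The 3 subunit genes that stood out in the cultures are isoforms of complex IV known from other tissues. Cox6a2 is the heart and muscle form of subunit 6a. It read 7.32, 7.17, 6.75 and 7.31 in sorted LT-HSC and 7.20, 6.86, 6.84 and 6.82 in sorted GMP. In LT-HSC-derived lines it read 9.23 and 9.55 with dox at 48 h, 9.35, 9.78 and 8.46 with dox at 72 h, 8.05, 8.61 and 8.27 without dox at 48 h, and 8.25, 8.65 and 7.95 without dox at 72 h. In GMP-derived lines it read 7.60, 8.33, 7.55 and 8.63 with dox and 6.84, 6.72 and 6.99 without. The order of the group means was thus LT-HSC-derived with dox, LT-HSC-derived without dox, GMP-derived with dox, and last the sorted cells and the GMP-derived lines without dox, which overlapped with each other. Arrays of LT-HSC-derived lines without dox overlapped with those of GMP-derived lines with dox.

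The difference of Cox6a2 with dox was 1.18 ± 0.26 in GMP-derived lines (adjusted p = 0.00309), without overlap. It was 0.91 ± 0.28 in LT-HSC-derived lines at 72 h (adjusted p = 0.0452), where line replicate 3 with dox (8.46) lay below line replicate 2 without (8.65). That call was lost in 7 of 15 alternative settings, with adjusted p up to 0.217, among them those without dox replicate 1 or 2 or without no-dox replicate 1 or 3. At 48 h it was 1.08 ± 0.31 (adjusted p = 0.191), and with the line as a block 0.89 ± 0.22 (adjusted p = 0.0482). Against sorted LT-HSC it was higher by 2.26 ± 0.29 with dox (4.78-fold) and 1.18 ± 0.26 without, and against sorted GMP by 1.10 ± 0.24 with dox, while the lines without dox gave -0.08 ± 0.26. GMP-derived lines were lower than LT-HSC-derived ones by -1.36 ± 0.29 with dox (adjusted p = 0.0104) and -1.46 ± 0.28 without (adjusted p = 0.00137). Leaving out LT-HSC-derived dox 48 h replicate 1 or 2 ended the former call (-1.52 and -1.20). With the culture name as a block shared by both origins, added after the data were seen, the differences were -1.24 ± 0.28 (adjusted p = 0.0139) and -1.44 ± 0.27 (adjusted p = 0.00173), and Cox7a1 was also called with dox (0.67 ± 0.18, adjusted p = 0.0439; 0.63 ± 0.18 and 0.0807 without the block). Its broad counterpart Cox6a1 gave -0.06 ± 0.08 with dox in GMP-derived lines.

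Cox7a1, the heart and muscle form of subunit 7a, was also higher in the lines, with the opposite response to dox in LT-HSC-derived cells. It read 6.42, 6.05, 6.01 and 6.01 in sorted LT-HSC and 6.25, 6.41, 6.10 and 6.51 in sorted GMP, and 6.83 to 7.08 in LT-HSC-derived lines with dox. Without dox these read 7.24, 7.53 and 7.74 at 48 h and 8.02, 8.07 and 7.58 at 72 h, above every array with dox. GMP-derived lines read 7.17 to 7.69 with dox and 7.17 to 7.84 without, so their groups overlapped. The difference with dox was -0.89 ± 0.17 in LT-HSC-derived lines at 72 h (adjusted p = 0.00183), -0.65 ± 0.19 at 48 h (adjusted p = 0.207) and 0.07 ± 0.16 in GMP-derived lines; the dox effects of the 2 origins at 48 h differed by 0.72 ± 0.25 (adjusted p = 0.334). Against the sorted cells of their origin, Cox7a1 was higher by 0.72 ± 0.18 with dox and 1.38 ± 0.16 without in LT-HSC-derived lines, and by 1.16 ± 0.15 and 1.09 ± 0.16 in GMP-derived ones.

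Cox6b2, the testis form of subunit 6b, went the other way. It read 7.89 to 8.51 in sorted LT-HSC and 8.13 to 8.31 in sorted GMP, and 6.09 to 6.85 on all 18 arrays of the lines. No array of the lines reached the sorted cells. The differences were -1.48 ± 0.16 with dox and -1.95 ± 0.14 without in LT-HSC-derived lines, and -1.86 ± 0.13 and -1.75 ± 0.14 in GMP-derived ones (adjusted p from 5.04e-11 to 7.59e-08). It was thus the 1 subunit gene lower in the LT-HSC-derived lines than in sorted LT-HSC. The other restricted isoforms, Cox4i2, Cox7b2, Cox8b and Cox8c, were called in no comparison, and Ndufa4l2 was called in 1, GMP-derived lines with dox against sorted GMP (0.39 ± 0.13, adjusted p = 0.0311; without dox 0.37 ± 0.14, adjusted p = 0.0532). These 5 genes had a mean signal below the median of all probe sets, unlike the other 77, and whether they lie above background was not analysed here.

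**Figure D5:**
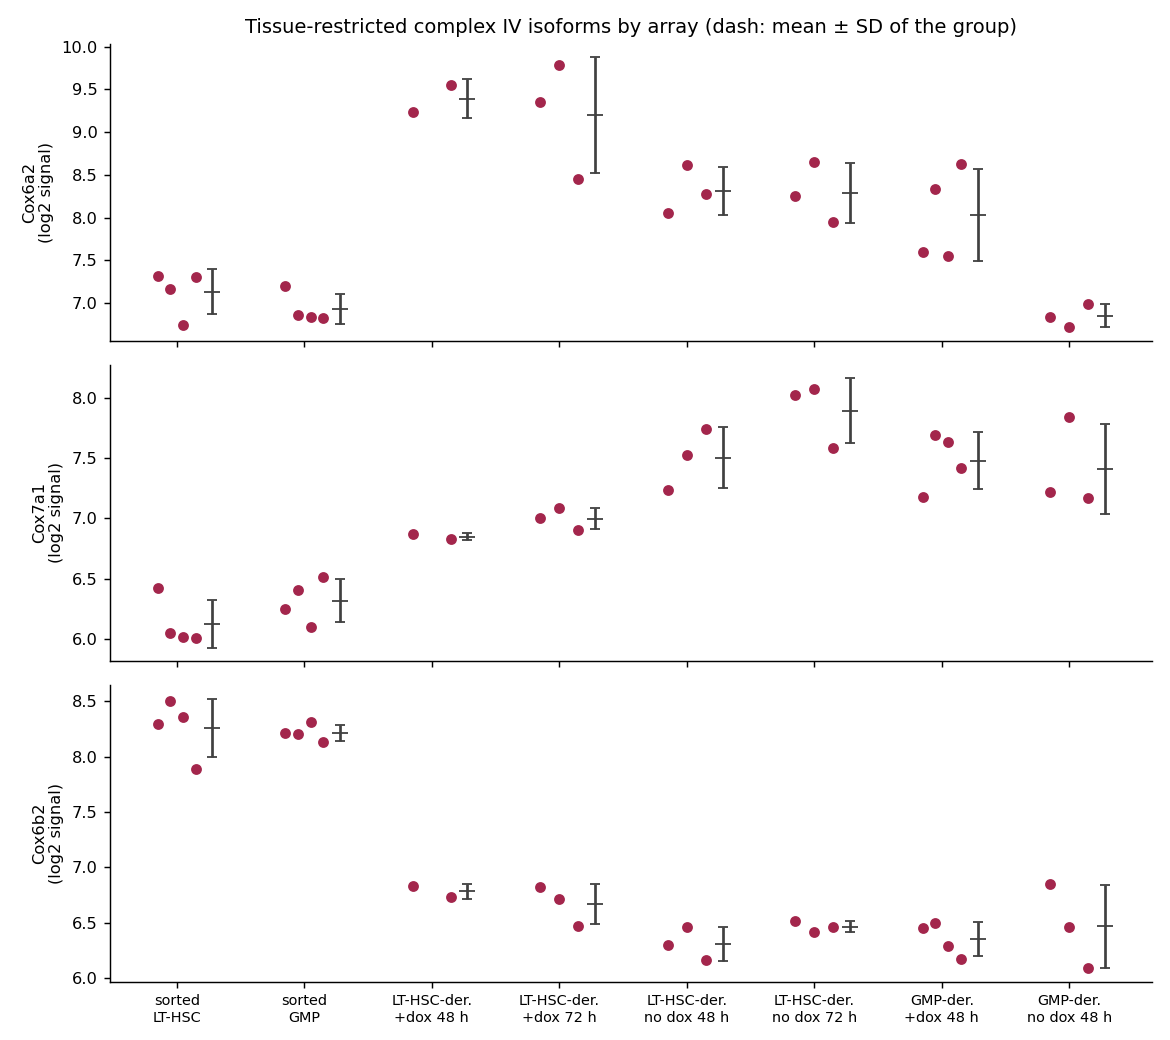
Signal of Cox6a2, Cox7a1 and Cox6b2 (vertical axes, log2) on each array of the 8 groups (horizontal axis), with the group mean and SD beside the points. Cox6a2 and Cox7a1 are higher in most groups of lines than in the sorted cells and differ in order between groups with and without dox, and Cox6b2 is lower on all arrays of the lines.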

How the data were processed

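The authors deposited log2 signals per probe set, made with limma and R 3.1.1, per the submitters' processing notes. The sources used here do not give how probes were corrected, summarised and scaled. RNA had been amplified before labelling, per the labels' protocols. Of 34760 probe sets, 21640 carried 1 symbol, and those with several or none were not used. limma 3.58.1 in R 4.3.3 fitted a mean for each of 8 groups to all 26 arrays and all 19937 genes, without a filter on dim genes, and 13 contrasts were tested, 2-sided, at a Benjamini-Hochberg adjusted p under 0.05. The number of arrays limits the precision. The procedure was tested on simulated data.

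The subunit genes and all gene lists were chosen with earlier results of these data known, so their counts are descriptions. Named genes were, per comparison and complex, up to 2 of the largest called increases and decreases, those called against the main direction, the paralogous isoforms, and up to 3 genes of each pathway list; Ndufb2, Ndufs6, Ndufs7, Uqcrh and other members named beyond this were chosen after their values were seen. Numbers of cultured replicates stand for lines named in the titles, which pairs cultures with and without dox; deviations of such pairs correlated at -0.06 to 0.40. Sorted replicates share only a number (0.02 to 0.06). Alternatives were quantile normalization, median centring, a dim filter, the mean of all probe sets of a gene, a fit of only the groups compared, a trended prior, array weights, the line as a fixed or random block, the culture name as a block across origins (added after seeing the data), and leaving out each array. Cox7c and Ndufb4 had only probe sets shared with another symbol and were not analysed here.
The NRF1 and YY1 motifs were shortened to 8 letters after longer forms had been searched, which fewer genes held.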

Additional observations from a re-analysis of the deposited data

Results flagged for a closer look

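For 40 of the 82 subunit genes, those named or listed as isoforms, and for the medians of the complexes, replicates were compared in the 3 groups of 4 arrays. Of 138 such sets, 120 were of genes and 18 of medians. In 14, all of genes, the gap between 1 array and its nearest replicate took up most of the range of the group. Chance flags about 1 in 20 groups. Such a gap can be small: Ndufa10 read 10.348 in sorted GMP replicate 2, against 10.307 to 10.312 in the others. In sorted LT-HSC, replicate 1 was high for Cox4i2 (6.08) and Cox7a1 (6.42) and low for Ndufb10 (8.49), and replicate 2 was high for Ndufa10 (10.04) and Ndufs5 (8.04). In sorted GMP, replicate 1 was high for Cox6a2 (7.20), replicate 2 was high for Atp5l (10.48) and Ndufa10 (10.35) and low for Uqcrfs1 (8.40), replicate 3 was high for Sdhb (8.94), and replicate 4 was low for Cox7a2l (10.09) and Ndufa4l2 (4.87). In GMP-derived lines with dox, replicate 4 was low for Cox4i2 (5.64) and replicate 2 was high for Sdhc (9.43).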

How the results depend on the processing

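The 91 called results of named genes had 1396 values under alternative settings. Of these, 1331 kept direction and call, 65 lost the call and 0 reversed. Results not called in the main fit are not in this tally, so gained calls do not show in it. The sorted comparison called 62 to 72 subunit genes over the settings that keep all arrays, and LT-HSC-derived lines against sorted LT-HSC 56 to 66 with dox and 62 to 71 without. GMP-derived lines against sorted GMP called 33 to 42 with dox and 26 to 36 without. For dox at 48 h in LT-HSC-derived lines, the line as a fixed replicate block called 1 gene (Cox6a2) in place of 0. At 72 h quantile normalization, median centring and a fit of only the groups compared called 1 each, and array weights 4 (Cox6a2, Cox7a1, Cox4i2 and Ndufs1). In GMP-derived lines the dim filter and array weights called 5 each, and the trended prior and the random block of line (consensus correlation 0.0731) 2 each, in place of 1; Cox6a2 was called in each. Between origins with dox, only the groups compared gave 0 and array weights 2, and the culture name as a fixed replicate block across origins, added after seeing the data, gave 2; same-named cultures of both origins correlated at 0.01 to 0.17 in their deviations. With the fixed replicate block the sorted comparison called 70, dox at 72 h 2 and dox in GMP-derived lines 1, so the block within origin changed no other count of calls by over 1.5 times. Leaving out 1 array at a time gave 70 to 71 in the sorted comparison, 0 to 0, 1 to 2 and 1 to 4 for dox (4 without GMP-derived dox replicate 3), 52 to 64, 67 to 70, 28 to 34 and 19 to 23 against sorted cells, and 0 to 2 and 1 to 1 between origins. Where this left a lone dox array of LT-HSC-derived lines at 48 h, that array is assumed to vary like the other groups. The cause of these changes was not tested. Signal over background was not given, which limits what the dim isoforms can show.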
